A study of Danio rerio with 2 samples.

Results

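Genes of the Notch and Hedgehog signalling pathways were described in RNA sequencing libraries of the forebrain choroid plexus of adult zebrafish, the folded tissue that secretes fluid into the brain ventricles. The members were taken by gene symbol alone, as the Notch receptors, their Delta and Jagged ligands, fringe enzymes, Rbpj and Mastermind genes, Her, Hes and Hey genes, Hedgehog ligands, Patched genes, smo, sufu, GLI factors and Hedgehog-binding proteins. This gave 60 genes of the 21019 in the authors' named table, 39 of them in the Notch pathway and 17 in the Hedgehog pathway. A further 4, namely hhipl1, PTCHD3, ptchd1 and ptchd4, carry related names and are given apart.

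The study holds 2 libraries of total RNA in 1 group, called batch 1 and batch 2 in the labels and replicates 1 and 2 here. Each was made from a pool of 12 to 19 whole tissues, from untreated fish of 6 to 8 months that were over 3 cm long. The fish were AB and nacre (mitfa-/-), and the sources used here do not give which strain went into which pool. The pineal gland was described as removed at dissection, though pineal markers were present, above all in replicate 1, as given below. With no second group there was no test between conditions. Pooling means that the spread between replicates is a spread between pools, not between fish, and what set the batches apart is not stated.

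In the Notch pathway, a Delta or Jagged ligand on the surface of a cell binds a Notch receptor on its neighbour. ADAM proteases and gamma-secretase then cut the receptor, and its intracellular domain enters the nucleus, where it joins Rbpj and Mastermind proteins and switches on genes of Her, Hes and Hey transcriptional repressors. In the Hedgehog pathway, a secreted ligand binds Patched with the help of Boc and Cdon, which frees Smoothened in the primary cilium and lets GLI factors act, while Sufu holds them back. Transcription of ptch1, hhip and gli1 is itself raised by the pathway in many vertebrate tissues. Notch holds adult neural stem cells in quiescence in the zebrafish forebrain, and in the mouse hindbrain choroid plexus Sonic hedgehog from the epithelium acts on progenitors and vessels.

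Replicate 1 held 11712489 expected counts and replicate 2 held 13446356, where an expected count is RSEM's estimate of the reads from a gene. Levels are in TPM, which scale counts by effective transcript length and to an equal sum per library, so that genes can be compared with each other. Markers of the labelled tissue were mostly present. Of 18 choroid plexus epithelium markers, led by rbp4 and igfbp2a, 16 reached 1 TPM in each replicate, beside 66.1% of all genes in the named table. The others were ttr, at 0.20 and 0.51 TPM, and kl, at 0.20 and 0.21 TPM. All 12 motile cilia markers, led by enkur and spag8, reached 1 TPM in each replicate. The lists were chosen with earlier results of these data known, so these counts do not test the identity of the tissue. In bulk tissue, fewer cells of a type and less RNA per cell cannot be told apart.

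Most members of both pathways were below 10 TPM, and in each pathway the summed level of receptors and binding proteins was above that of the ligands. Genes that reached 1 TPM in each replicate are called detected here. Of the 60 members 31 were detected, or 51.7%, beside 66.1% of all genes in the named table. Of the 60 members 12 reached a TPM of 10 in both replicates, or 20.0%, beside 31.9% of all genes. The members at 100 or more in both were hhipl1 and her9, where 3.78% of all genes reached this level. Another 10 members were at 1 or above in 1 replicate only, and 19 stayed below 1 in both. Of the 21019 genes in the named table, 2003 were at 1 or above in 1 replicate only and 5119 stayed below 1 in both. Summed over the members, the level was 782 TPM in replicate 1 and 657 TPM in replicate 2.

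Among the Notch receptors, notch2 led. It stood at 56.0 TPM in replicate 1 and 44.9 in replicate 2, or 50.5 ± 7.85 (SD, n = 2), from 4921 and 4956 counts. The receptor gene notch3, expressed in mural cells and in neural stem cells of vertebrate brain, stood at 36.5 and 20.8 TPM, or 28.7 ± 11.1. The lowest notch2 value was above the highest notch3 value, and notch3 was above both copies of notch1 in each replicate. Of all Notch receptor TPM, notch2 held 50.5% and 63.4% in the replicates, and notch3 held 32.9% and 29.3%. The copy notch1b stood at 7.58 and 4.23 TPM. The copy notch1a stood at 10.8 and 0.95 TPM, so the order of the notch1 copies was not the same in both replicates.

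In sum the ligands were lower than the receptors, though jag2b was above both copies of notch1 in each replicate. Summed receptor TPM was 3.41-fold and 3.36-fold the summed ligand TPM in replicates 1 and 2. The highest ligand gene was jag2b, of the Jagged family, with 15.3 and 6.22 TPM. It was followed by dlc, a Delta ligand gene, with 5.66 and 4.49 TPM and by dll4, a ligand of developing vessels, with 5.04 and 4.82 TPM. These last 2 did not keep 1 order in both replicates. The Jagged genes jag1b, jag2a and jag1a stood at 3.95 and 2.99, at 0.80 and 1.49, and at 1.09 and 0.90 TPM. The Delta genes dla, dlb and dld were near the limit of the depth. dld had 6 counts in each replicate, at 0.22 and 0.17 TPM. dla and dlb had 7 counts each in replicate 1 and none in replicate 2, where a count of 0 allows up to 0.0647 and 0.182 TPM, taking 3 counts as the limit.

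Fringe enzymes add a sugar to Notch receptors and shift their response between Delta and Jagged ligands. All 3 were detected, with lfng at 13.8 and 11.7 TPM, rfng at 15.9 and 8.34 TPM, and mfng at 3.51 and 4.04 TPM. The order of lfng and rfng differed between the replicates, while mfng was the lowest in each. Of the nuclear partners, maml1, a Mastermind coactivator gene, stood at 26.4 and 16.1 TPM, and maml3 at 12.1 and 7.91 TPM. The DNA-binding partner gene rbpja stood at 7.37 and 9.29 TPM, and its duplicate rbpjb at 3.51 and 1.28 TPM. rbpja was thus 2.10-fold and 7.26-fold the level of rbpjb.

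The 19 Her, Hes and Hey genes were dominated by her9. It stood at 125 and 118 TPM, or 122 ± 5.18, at the 97.0 and 97.1 percentile of all genes in the files. It held 67.0% and 76.7% of the TPM of this class. her9 belongs with the mammalian Hes1 and Hes4 genes, and in the zebrafish embryo it marks neural plate zones that hold back neurogenesis. The class was taken by symbol, and whether her9 or its other genes respond to Notch in this tissue was not tested. Next were hes6, which in the mouse counters Hes1, with 27.1 and 21.5 TPM, and her6, a zebrafish counterpart of Hes1, with 10.9 and 9.38 TPM. These 3 kept their order in both replicates with ranges that did not overlap. The artery gene hey2 stood at 2.81 and 2.54 TPM and hey1 at 1.28 and 0.76 TPM. Only 4 of the 19, namely her9, hes6, her6 and hey2, were detected by the rule. The clock genes her1 and her7 of the embryonic somites had 0 counts in replicate 1 and 1 count each in replicate 2. her8a stood at 0.78 and 0.09 TPM from 14 and 2 counts, and her8.2, her12, her13 and hes2.1 had at most 2 counts in either replicate. The her4 and her15 genes are described with the differences between the replicates.

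**Figure D1:**
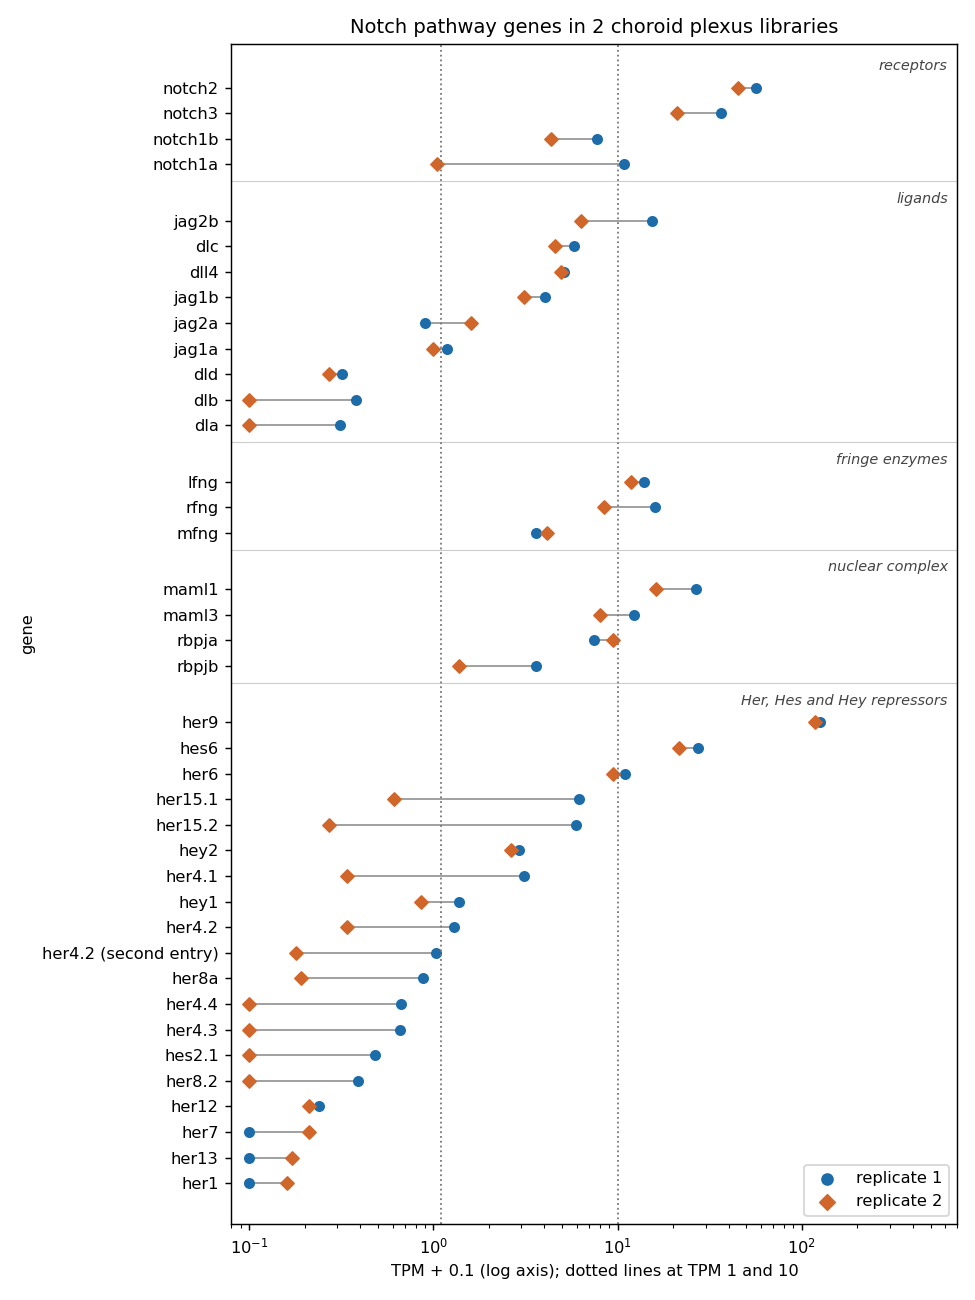
TPM of the 39 Notch pathway genes in replicate 1 (circles) and replicate 2 (diamonds), ordered by mean level within each role, on a log axis of TPM + 0.1. notch2 and notch3 lie above all ligands, her9 stands far above the other repressor genes, and her4 and her15 entries lie well to the left in replicate 2.

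The Hedgehog ligands were at or near the limit of the depth. dhh, the Desert hedgehog gene, was the 1 ligand detected, with 1.3 and 2.84 TPM from 18 and 29 counts. The exact 95% Poisson intervals of these values, which cover counting error only, ran from 0.77 to 2.05 and from 1.90 to 4.07 TPM. ihha stood at 0.84 and 0.60 TPM from 10 and 9 counts. The Sonic hedgehog genes shha and shhb stood at 0.13 and 0.10 and at 0.25 and 0.05 TPM, with 5 and 5 and with 4 and 1 counts. ihhb had 0 and 2 counts. Summed ligand TPM was 2.52 and 3.84, where summed TPM of the receptors and ligand-binding proteins was 122 and 69.4.

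Among proteins that bind the ligand, hhip and cdon led. hhip, which encodes a membrane protein that captures Hedgehog ligands, stood at 45.6 and 31.9 TPM, or 38.8 ± 9.64. The coreceptor gene cdon stood at 44.2 and 18.3 TPM, or 31.3 ± 18.3, and its relative boc at 14.9 and 9.29 TPM. hhip was above cdon in each replicate, but their ranges overlapped. The receptor gene ptch1 stood at 12.0 and 5.57 TPM from 491 and 286 counts. A second entry named ptch1 had 4.19 and 3.35 TPM, but these rest on 3.73 and 3.43 counts over an effective length of 99.8 and 91.2 bases. Its counts were not whole, so reads were divided between entries, and its TPM carries little information.

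In TPM, smo and sufu were close in level across the replicates, and the GLI factors were lower in replicate 2. As log2 ratios of replicate 2 over replicate 1, centred on the median gene as described below, smo and sufu lay at 0.219 and 0.311. On that scale gli3, gli1, gli2a and gli2b lay at -0.185, -0.487, -0.229 and -0.34. The contrast in TPM thus includes the shift of the median gene between the libraries. smo, the Smoothened gene, stood at 21.4 and 20.8 TPM, or 21.1 ± 0.368. sufu, whose product restrains GLI factors, stood at 42.7 and 44.5 TPM, or 43.6 ± 1.27. sufu was above smo per length in each replicate. The GLI factors were below both, with gli3, largely a repressor without ligand, at 6.36 and 4.43 TPM and gli1, an activator, at 6.35 and 3.40 TPM. gli2a stood at 3.22 and 2.02 TPM and gli2b at 0.84 and 0.22 TPM. The difference between gli3 and gli1 was 0.01 TPM in replicate 1, and they cannot be ordered. gli2a and then gli2b were below both in each replicate.

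Of the genes with related names, hhipl1 was the most abundant of all 60 members. Its product is a secreted relative of Hhip. It stood at 148 and 189 TPM, or 168 ± 28.5, from 3627 and 5778 counts. PTCHD3 and ptchd4, of the Patched domain family, stood at 13.5 and 14.4 and at 2.14 and 0.86 TPM. ptchd1 had 2 and 0 counts.

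**Figure D2:**
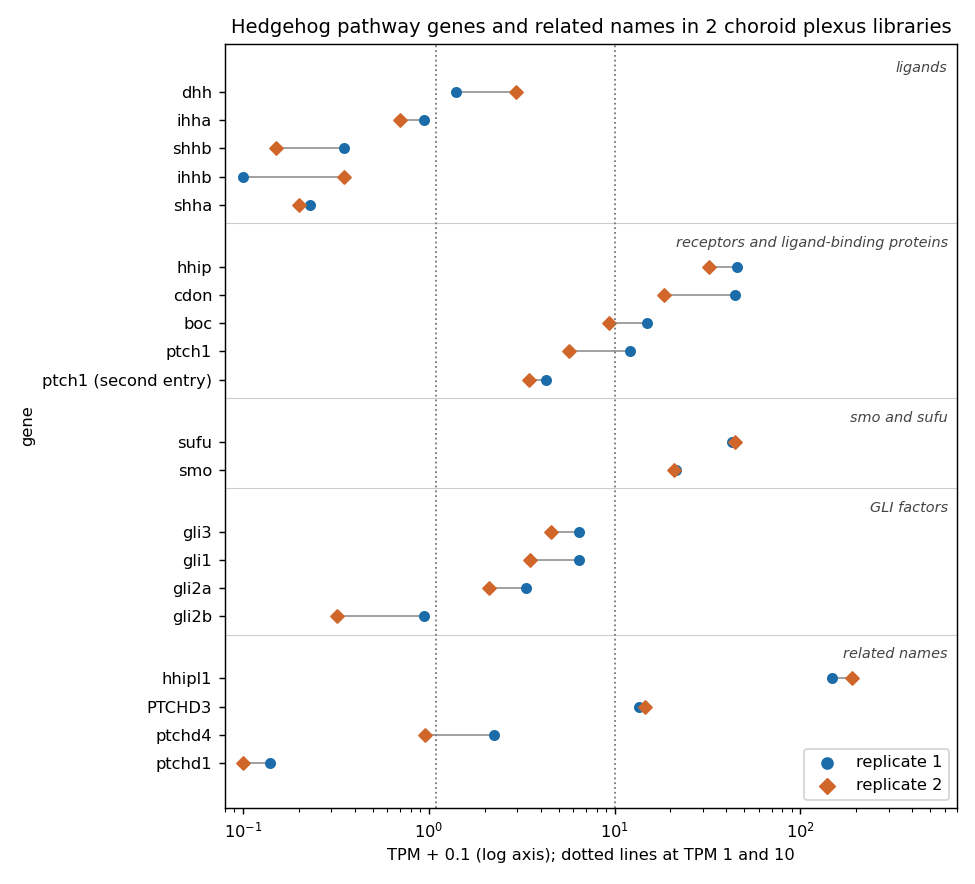
TPM of 16 Hedgehog pathway genes and 4 genes with related names in replicate 1 (circles) and replicate 2 (diamonds), on a log axis of TPM + 0.1. The 5 ligand genes lie below 3 TPM, whereas hhip, cdon, sufu and smo lie between 18.3 and 45.6 TPM.

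Other genes of both pathways were taken from lists of known components. Beside the counts below, 66.1% of all genes in the named table were detected and 31.9% reached 10 TPM in both replicates. Of the Notch lists, 1 processing, 1 nuclear and 2 noncanonical ligand symbols matched no gene and were left out. Of the Hedgehog lists, 6 transduction, 1 ligand release and 3 response symbols were left out likewise. Of 36 genes of Notch processing, ligand endocytosis and sugar transfer 30 were detected and 16 reached 10 TPM. They were led by the protease gene adam10a at 117 ± 17.8 TPM (SD, n = 2), the endocytic adaptor gene epn1a at 60.8 ± 28.0, the ligand ubiquitin ligase gene mib1 at 49.5 ± 7.58, and psenen, a gamma-secretase subunit gene, at 40.9 ± 3.29 TPM. Of 27 nuclear cofactor and corepressor genes 25 were detected and 15 reached 10 TPM. ctbp2a stood at 149 ± 8.77, hdac1 at 96.5 ± 5.73, ctbp1 at 66.0 ± 8.00 and ncor1 at 45.8 ± 9.84 TPM. Many of these serve other pathways too. Of 9 noncanonical ligand genes 4 were detected and none reached 10 TPM in both replicates. The highest were the microfibril genes mfap2, at 5.51 and 11.7 TPM, and mfap5, at 11.9 and 5.21 TPM, then egfl6 at 2.39 ± 0.778 and cntn1a at 2.30 ± 2.22 TPM.

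On the Hedgehog side, 26 of 27 transduction genes were detected and 17 reached 10 TPM. The kinase genes csnk1a1, csnk1da and gsk3ab stood at 181 ± 0.948, 61.6 ± 7.17 and 41.0 ± 5.03 TPM, and the protein kinase A subunit gene prkar1aa at 101 ± 5.32 TPM. Of 22 genes of ligand release and coreception 15 were detected and 6 reached 10 TPM. They were led by mgrn1a at 89.2 ± 11.2, the heparan sulphate enzyme gene ext2 at 39.9 ± 1.09, the coreceptor gene gas1a at 36.2 ± 1.76, and lrp2a, the megalin gene, at 32.4 ± 5.71 TPM. Of 16 genes known to respond to Hedgehog in other tissues 6 were detected and 2 reached 10 TPM. These were the cyclin gene ccnd1 at 14.1 ± 0.495 and bcl2a at 12.9 ± 2.75 TPM. mycn followed at 12.9 and 2.09 TPM, and then osr1 at 5.29 ± 0.106 TPM.

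Between the replicates, the abundant members differed by less than 2-fold after centring. Ratios are log2 of TPM + 1 in replicate 2 over that in replicate 1, centred on the median gene averaging 1 TPM or more, which lay at -0.25. Of the 17 members averaging 10 TPM or more, none differed by 4-fold, beside 1.43% of all genes at that level. None of the 17 differed by 2-fold, beside 5.05% of all genes. With 17 members, shares this small give fewer than 1 gene, so these counts are not a result about the members. The closest was cdon, whose counts per total were 2.17-fold higher in replicate 1, with an exact 95% counting interval of 1.99 to 2.37. For jag2b this ratio was 2.39, with an interval of 2.09 to 2.73, and its centred log2 ratio was -0.92 from TPM and -1.075 from counts, just past 2-fold on the latter scale. Such intervals compare these libraries and say nothing of the spread between fish.

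**Figure D3:**
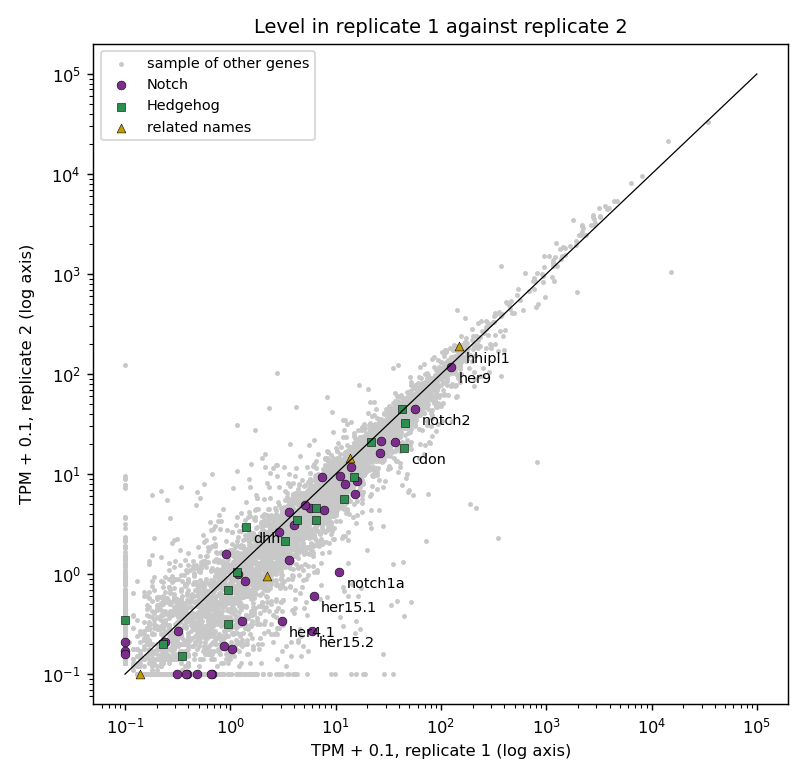
TPM + 0.1 in replicate 1 (x axis) against replicate 2 (y axis), both on log axes, for Notch (circles), Hedgehog (squares) and related-name members (triangles) over a sample of other genes (grey). Abundant members lie along the line of equal levels, and notch1a, her15.1, her15.2 and her4.1 lie well below it.

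Over the 39 members averaging 1 TPM or more, the median ratio was -0.12. Of these, 25 lay below 0 and 14 above, where 50% of all genes lay below 0. A 2-fold difference was seen for 4 of the 39, or 10.3%, beside 8.77% of all genes, and a 4-fold one for 2 of the 39, or 5.13%, beside 2.12%. The first share is near that of all genes and the second rests on 2 genes. These counts are therefore not a result about the members. The 4 with a 2-fold difference were her15.1, her15.2, her4.1 and notch1a, and in all 4 replicate 1 was higher. Of all genes, 5.22% were 2-fold and 1.18% were 4-fold higher in replicate 1. All 4 were below 1 TPM in replicate 2 and passed the level filter through replicate 1 alone. Their shared direction was thus partly set by the filter.

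The her4 and her15 genes are fish counterparts of Hes5, a Notch target of neural progenitors. In the gene order of RefSeq assembly GRCz12tu, her15.1 and her15.2 are direct neighbours, and her4.2, her4.1, her4.3 and her4.4 form a row next to her12. her15.1 stood at 6.08 and 0.51 TPM and her15.2 at 5.85 and 0.17 TPM. her4.1 stood at 2.99 and 0.24 TPM, and the other 4 her4 entries, among them a second one named her4.2, were between 0.56 and 1.19 TPM in replicate 1 and at most 0.24 TPM in replicate 2. Counts of these copies were partly not whole, so RSEM divided reads between them and the level of a single copy is uncertain. Their sums do not have this limit among themselves. Over the 5 her4 entries they were 61 and 7 counts, which is 10.0-fold per total count with an interval of 4.57 to 25.9. Over the 2 her15 entries they were 214 and 15 counts, which is 16.4-fold with an interval of 9.71 to 29.8. Of these 7 entries, only her4.1, her15.1 and her15.2 averaged 1 TPM or more. Over the 24 Notch members at that level the median ratio was -0.09, and over the 21 left without her4 and her15 it was -0.06.

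Most markers of pineal cells and neurons averaging 1 TPM or more were also higher in replicate 1, as her4 and her15 were. The part of these markers in this difference was not tested. Of 24 pineal and photoreceptor markers, 22 were at 1 or above in replicate 1 and 16 in replicate 2, and their summed level was 3664 and 257 TPM. Of the 22 averaging 1 TPM or more, 20 had a centred ratio below 0, and the median was -3.474. pde6c and parietopsin went the other way, at 39.3 and 58.5 and at 1.56 and 2.33 TPM. asmt2, arr3b and pde6gb had ratios of only -0.057, -0.057 and -0.201. Whether pineal tissue remained in a pool after the dissection was not tested. Of the pineal and photoreceptor markers, rom1a was at 0 in both replicates, and the most abundant, rcvrnb and pde6ha, stood at 862 and 5.50 and at 812 and 13.0 TPM. Of 17 neuron markers, 13 and 5 were at 1 or above, with a summed level of 82.6 and 49.4 TPM and none at 0 in both. They were led by map2, at 29.4 and 31.8 TPM, and snap25b, at 15.9 and 3.84 TPM. Of the 9 neuron markers averaging 1 TPM or more, 7 had a centred ratio below 0, and the median was -0.742. map2 and tubb5 went the other way, with ratios of 0.363 and 0.242. The 13 radial glia and astroglia markers, without her4.1, summed to 5391 and 6953 TPM, with a median ratio of -0.02 and none at 0 in both. Of these, slc1a2b, at 14.5 and 1.77 TPM, and slc1a3b, at 4.22 and 0.07 TPM, were over 4-fold higher in replicate 1 and were named after their values were seen. The list was led by fabp7b, at 1812 and 3443 TPM, and glulb, at 1135 and 937 TPM. The genes glula, fabp7a and s100b came next, so the sum was carried by a few abundant genes. In contrast, gfap stood at 4.17 and 3.14 TPM, aqp4 at 0 and 0.35 TPM, and nes at 0 and 0.01 TPM. The sum thus does not show the level of these 3 markers. Among the 11 markers averaging 1 TPM or more, 6 had a centred ratio below 0 and 5 above.

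Proneural factors promote neuronal fate, and Her and Hes proteins repress some of them. Of 11 genes on a list of these and related factors, 3 were detected. The 11 summed to 47.9 and 10.8 TPM, and insm1a held the largest part in each replicate, at 33.5 and 4.83 TPM. neurod1 stood at 9.12 and 1.78 TPM and ascl1a at 2.09 and 0.31 TPM. These 3 genes were higher in replicate 1 like her4 and her15. ascl1b stood at 1.85 and 2.93 TPM, the other way. atoh1b, atoh7 and neurog3 were at 0 in both.

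Summed levels of vessel, stroma, immune and cell cycle markers differed less between the replicates. The 21 endothelium markers, led by plvapa and cldn5a, summed to 245 and 261 TPM. The 12 mural cell markers, without notch3 and led by myl9a and pdgfrb, summed to 295 and 296 TPM. The 16 fibroblast and meninges markers, led by slc13a3 and mmp2, summed to 988 and 804 TPM. The 15 microglia and macrophage markers, led by cd74a and lgmn, summed to 584 and 573 TPM, and the 14 cell cycle markers, led by hmgb2a and pcna, to 419 and 354 TPM. None of these markers was at 0 in both replicates. Most of the cell cycle sum came from hmgb2a, at 285.9 and 246.77 TPM, and pcna, at 94.09 and 71.95 TPM. In contrast, mki67 stood at 0.88 TPM in each replicate and ccna2 at 0.33 and 0.30 TPM. On the centred log2 scale, the median ratio was 0.388 for endothelium, with 17 of 19 markers above 0. It was 0.313 for mural cells, with 9 of 10 above 0. The fibroblast, microglia and cell cycle lists had medians of 0.085, 0.301 and 0.038. The dll4 and hey2 genes, active in arterial endothelium, had centred ratios of 0.20 and 0.15, while hey1 had -0.12 and notch3 had -0.53. Which cells the transcripts of these members came from was not tested.

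**Figure D4:**
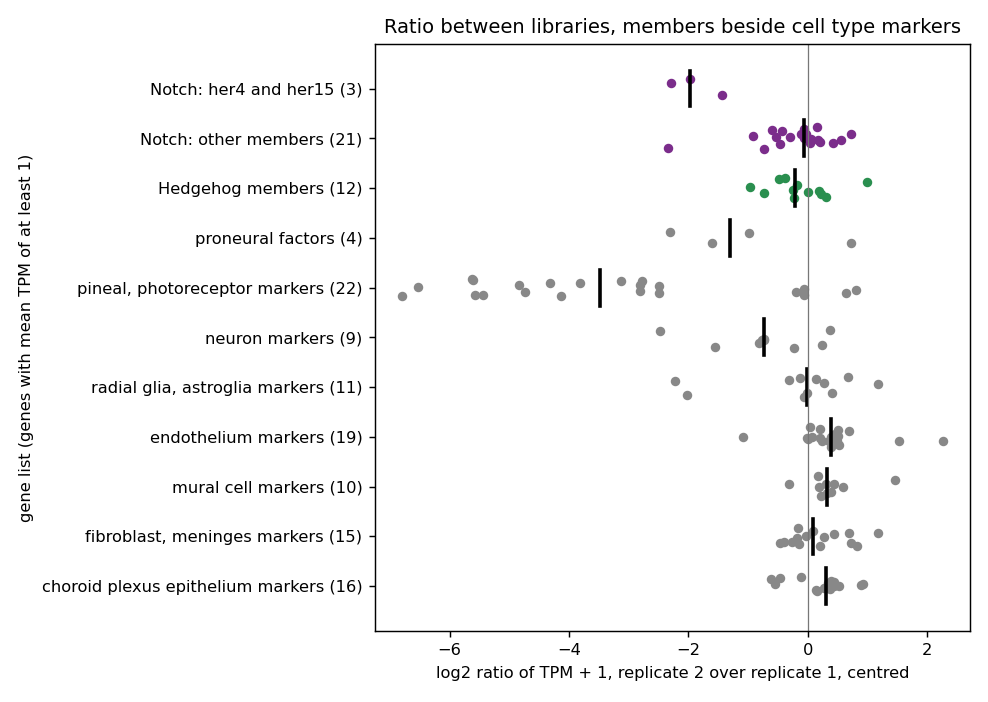
Centred log2 ratio of TPM + 1, replicate 2 over replicate 1, for members and marker lists, with each dot a gene of mean TPM at least 1 and each bar the median of its list. The 3 her4 and her15 entries plotted, her4.1, her15.1 and her15.2, lie below -1 with many pineal and photoreceptor markers. Among the other Notch members, notch1a lies lower still, at -2.34. The remaining Notch and Hedgehog members lie from -0.973 (cdon) to 0.993 (dhh). The 3 her4 and her15 entries and notch1a passed the level filter through replicate 1 alone.

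For notch1a, the size of the difference depended on the unit. Its counts were 167 and 70, or 2.74-fold per total count with an interval of 2.06 to 3.67, whereas its TPM differed 11.3-fold. RSEM assigned the reads to a mix of 3 isoforms with an effective length of 1735 bases in replicate 1 and 6526 bases in replicate 2. With 1 length for both libraries, notch1a stood at 4.50 and 1.52 TPM, and notch1b was then above it in both replicates. An effective length that differed by over 10% was seen for 4 of the 39 members averaging 1 TPM or more, beside 15.7% of all such genes. The others were dhh, dlc and maml1. For dhh the counts scaled to the library total (CPM), at 1.54 and 2.16, differed less than the TPM did.

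**Figure D5:**
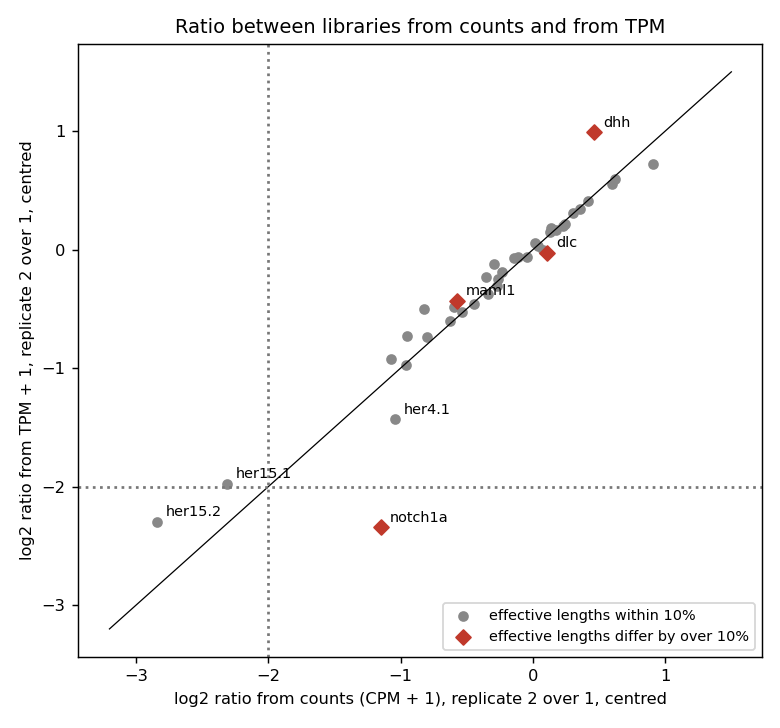
Centred log2 ratio between replicates from CPM (counts scaled to the library total, x axis) and from TPM (y axis) for 39 members averaging 1 TPM or more. Diamonds mark genes whose effective length differed by over 10%, and dotted lines mark 4-fold: notch1a passes it in TPM only, her15.2 in both and her15.1 in counts only.

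Zebrafish carry many genes in duplicate copies named a and b. Of the 7 such pairs among the members, none was called unequal by the rule, which asks for 4-fold the same way in both replicates on the TPM + 1 scale and a higher copy at a mean TPM of 10 or more. Only jag2b met that level, so the other pairs could not be called whatever their ratio. With the level lowered to a mean TPM of 1, the count was still 0. jag2b was 9.06-fold and 2.9-fold above jag2a on the TPM + 1 scale. Its counts per total were higher in replicate 1 and those of jag2a were higher in replicate 2, at 2.05 and 4.17 CPM. The same copy was higher in both replicates for gli2a over gli2b, ihha over ihhb, jag1b over jag1a, jag2b over jag2a and rbpja over rbpjb. For notch1 and shh the copy higher in TPM differed between the replicates. By CPM, notch1b and shha were the higher copies in both replicates, and each shh copy had at most 5 counts.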

How the data were processed

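Reads were processed with RSEM 1.3.3, STAR and build GRCz11, per the submitters' processing notes; the annotation used was not given in the sources. The deposited files hold, per the file headers, RSEM expected counts, TPM, FPKM and effective lengths in bases for 25432 genes in each library. FPKM deposited by the authors served as an alternative only. The authors' table of the whole series gives TPM within 0.005 of the average of the libraries, and was used for gene names. The members and lists were chosen with earlier results of these data known. Every member with a mean TPM of at least 10 was named, with every Notch receptor, ligand, smo and GLI gene, the 4 highest genes of each pathway list and the 2 highest of the marker lists set beside the members; other named genes were chosen after their values were seen. Symbols hhla2a.1, jagn1a and jagn1b, placed on lists in error, were removed after values were seen. With 1 group of 2 libraries no test was run. The values of 1 member are not reported here, though counts and sums over members include it. The procedure was tested on simulated data, with changes planted only in genes at higher levels and 1 effective length per gene. Changes at low levels, as for her4, her15 and notch1a, were not simulated. Neither were effective lengths that differ between libraries. Counting intervals are exact 95% Poisson or Clopper-Pearson intervals on rounded counts, and cover counting error only. A count of 3 equals 0.256 and 0.223 CPM. Expected counts were not whole for 9 and 5 members. Scaling alternatives used edgeR 4.0.16 and DESeq2 1.42.0, and Python 3.11.15 was used for the rest. No coordinates or sequences are given, and the planned motif search was not run.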

Additional observations from a re-analysis of the deposited data

How the results depend on the processing

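The number of detected members, 31, stayed between 29 and 40 under all alternatives tried. The 12 members at a TPM of 10 or above became 23 with CPM in place of TPM and 19 with a threshold of 5, and ranged from 12 to 19 when each replicate was left out in turn. No member differed 4-fold at a mean TPM of 10, also with other scalings and a pseudocount of 0.1. At a mean TPM of at least 5 this was 1 (notch1a) and at 1 it was 2 (notch1a, her15.2). At a mean TPM of 1 it was 3 (with her15.1) with no removal of the median, TMM or DESeq2 factors, and 4 (with her15.1 and her4.1) with a pseudocount of 0.1. At a mean TPM of 1 with CPM, an alternative chosen after seeing the data, it was 2 (her15.1, her15.2), and with 1 effective length per gene, also chosen after seeing the data, it was 1 (her15.2). The count of unequal duplicate pairs, 0, became 1 with CPM, 1 at 2-fold, and ranged from 0 to 1 when each replicate was left out. Only the jag2 pair met the level of this rule in TPM. Lowering that level to a mean TPM of 1 left the count at 0. Summed member TPM was 720 and fell to 536 without the 4 genes taken by name. The median ratio stayed between -0.37 and -0.06. Depth limits members with few counts: 16 and 23 members had under 10 counts in replicates 1 and 2. No paired analysis was possible because there is only 1 group.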

Other observations

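The reference table of gene symbols names 10 further genes that match the same symbols but that the authors' table does not name so. Of these, 9 had 0 counts in both libraries, among them heyl, her2, her5 and her11. The tenth carries the symbol DLD in the reference table and dldh in the authors' table, at 118 and 127 TPM. It encodes the metabolic enzyme dihydrolipoamide dehydrogenase, not the ligand deltaD, and is no member.

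nrarpa, a Notch target whose product dampens Notch signalling, stood at 7.93 and 14.1 TPM in replicates 1 and 2, higher in replicate 2 where the her4 and her15 genes were lower. Its duplicate nrarpb was at 1.62 and 1.39 TPM. Both were singled out after their values were seen.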
